A study of Sus scrofa with 24 samples.

Results

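Gene expression on day 2 of adipogenic culture was compared between intramuscular and subcutaneous adipocytes of the pig, using all 6 libraries taken on that day, 3 per depot, out of 24 libraries in the series. BF-2d denotes cells grown from the subcutaneous fat of the back, and IMF-2d denotes preadipocytes isolated from the longissimus dorsi muscle. Per the methods the muscle tissue was digested for longer and with more collagenase than the back fat, so depot and isolation cannot be told apart. The donors of both groups were 6-day-old Yorkshire piglets, and both groups had spent the 2 days since day 0 in the same induction medium, which per the study's methods held IBMX, dexamethasone and insulin. Day 2 is therefore the end of induction, before the change to medium with insulin alone. The methods name 3 piglets, and no label ties a replicate number to a piglet or to a separate culture, so the p-values measure the spread between these libraries, which may be technical.

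Preadipocytes become fat cells in steps. IBMX, which blocks the breakdown of cyclic AMP, and dexamethasone, a glucocorticoid, switch on the early factors CEBPB and CEBPD. These in turn raise PPARG and CEBPA, the factors under which the genes of lipid storage are expressed, while the cells give up the stress fibres and much of the fibroblast matrix of the precursor state. Cells of different depots also carry lasting marks of where in the body they arose, among them HOX and other patterning genes.

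Each value is an FPKM, which is a fragment count that the authors had scaled by gene length and library size. Differences are IMF-2d minus BF-2d of log2(FPKM + 1) and carry their standard error (SE). Because 1 is added to each value, differences of weakly expressed genes come out too small. A gene is "called" when its limma p-value, adjusted by Benjamini-Hochberg over all 16135 genes tested, was under 0.01 and its difference was at least 1 in size. In bulk RNA, fewer cells of a type and less RNA per cell cannot be told apart. FPKM of a day 2 library summed to between 333955 and 385768, between 9985 and 10678 genes reached 1 FPKM, and FPKM values do not carry the read depth, which was not used here. An exact 0 can be a failed estimate, so such a gene is described as listed at 0.

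BF-2d replicate 3 stood apart from the other BF-2d libraries. Across genes, its log2 values correlated at 0.962 and 0.972 with BF-2d replicates 2 and 1, at 0.975 to 0.979 with the 3 IMF-2d libraries, and at 0.975 to 0.977 with the undifferentiated subcutaneous cells of day 0 (BF-0d). BF-2d replicate 1, in contrast, correlated at only 0.937 to 0.939 with BF-0d, and the 3 IMF-2d libraries correlated with each other at 0.991 to 0.994. These are correlations across genes, which are not independent replicates. List counts and the differences of the genes described are therefore given with and without it.

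With all libraries, 764 genes were called between the depots (4.74% of those tested), 438 higher (2.71%) and 326 lower (2.02%) in IMF-2d. Without BF-2d replicate 3 there were 1287 (7.98%), 781 higher (4.84%) and 506 lower (3.14%). Both fits called 743 genes, of which 426 were higher and 317 lower in IMF-2d, and 627 of the 743 carried a gene symbol. A further 544 genes were called only without BF-2d replicate 3, and 21 only with it. Leaving out BF-2d replicate 2 in its place gave 445 calls. The differences were large for a minority: 138 of the 764 reached 2, and 13 reached 4. When only the 6 day 2 libraries were fitted, so that the other 18 no longer informed the spread of a gene, 107 genes were called (0.663%), and 94 of these were among the 764. In that fit 4397 genes had an unadjusted p under 0.05, and no member of the cAMP, glucocorticoid, prostaglandin, contractile, CCN and YAP/TAZ, glycolysis or cell cycle lists described below was called. With BF-2d replicate 3 left out of it as well, 830 of the 16135 tested genes were called, 460 higher and 370 lower in IMF-2d. The calls per list were not counted there. The median difference over all tested genes was 0.07, and 0.09 without BF-2d replicate 3. Of the calls, 57.3% were on the IMF-2d side, and 60.7% once BF-2d replicate 3 was left out. With libraries scaled by their median ratio these shares were 43.3% and 41.8%, and with quantile normalization 47.9% and 47.7%, so which side held more calls depended on the scaling.

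Where a BF-2d library lay was measured on genes called without it, on a scale from 0 (the mean of the other BF-2d libraries) to 1 (the mean of IMF-2d). BF-2d replicates 1 and 2 lay at medians of -0.07 over 598 genes and -0.26 over 445 genes. BF-2d replicate 3 lay at a median of 0.63 over 1287 genes, nearer to IMF-2d for 67.4% of them, yet it was on the subcutaneous side of the whole IMF-2d range for 84.2%. Its position differed between classes of genes. Over the 143 genes that were also called on day 0 on the same side it lay at a median of 0.26, and over the other 1144 at 0.66.

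**Figure D1:**
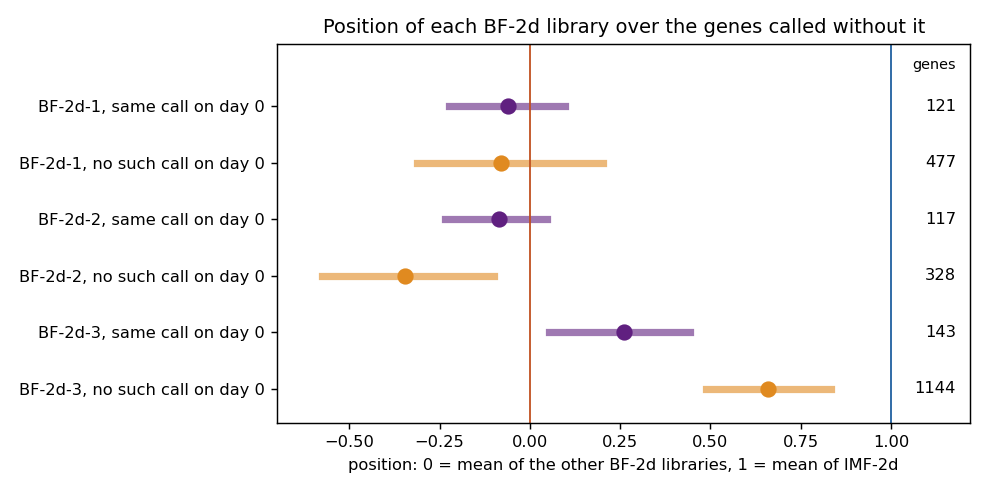
Position of each BF-2d library over the genes called without it, where 0 on the horizontal axis is the mean of the other BF-2d libraries and 1 is the mean of the 3 IMF-2d libraries. Points are medians, bars run from the lower to the upper quartile, and the number of genes stands at the right. Purple marks genes called on day 0 on the same side and orange the other genes. The medians of replicates 1 and 2 lie below 0, and replicate 3 lies at 0.26 for the purple class and at 0.66 for the orange class.

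Part of the day 2 difference was already there before induction. On day 0, 417 genes were called between the depots (2.58%), and 140 of them were called on day 2, 134 in the same direction. That is 18.3% of the day 2 genes and 33.6% of the day 0 genes. On day 4, 1826 genes were called (11.3%) and shared 576 with day 2, 574 of them in the same direction, or 75.4% of the day 2 genes and 31.5% of the day 4 genes. Without BF-2d replicate 3 the shares of day 2 genes were 12.1% for day 0 and 65.7% for day 4. The change of the depot difference itself from day 0 to day 2 was called for 395 genes (2.45%), and for 1182 (7.33%) without BF-2d replicate 3. It was called for 221, 223 and 229 genes without BF-2d replicate 2, IMF-2d replicate 1 and IMF-2d replicate 3. From day 2 to day 4 the change was called for 493 genes (3.06%), for 879 without BF-2d replicate 1 and for 317 without IMF-2d replicate 2.

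**Figure D2:**
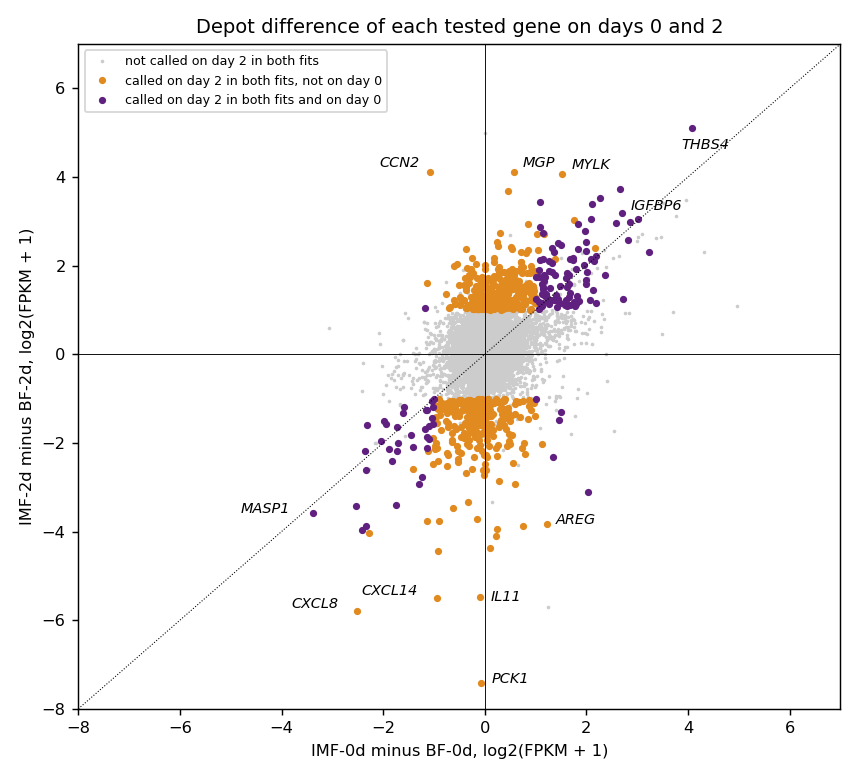
Depot difference of each tested gene on day 0 (horizontal axis, IMF-0d minus BF-0d) and on day 2 (vertical axis, IMF-2d minus BF-2d), both on the log2(FPKM + 1) scale, 1 point per gene. Genes called on day 2 with and without BF-2d replicate 3 are purple where they were also called on day 0 and orange where they were not. MASP1 and IGFBP6 lie near the dotted line of equal differences, and PCK1, IL11, CCN2 and MGP lie between -1.07 and 0.56 on day 0 and far from 0 on day 2.

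The 12 largest differences on each side included matrix and contractile genes on the IMF-2d side and secreted inflammatory factors on the BF-2d side. THBS4 and PCK1 had the largest difference on each side. THBS4, a thrombospondin of the extracellular matrix, was at 49.2, 46.9 and 46.4 FPKM in IMF-2d and at 0.539, 0.317 and 0.358 in BF-2d. All 3 BF-2d libraries were alike, and the difference of 5.11 (SE 0.11, adjusted p = 1.72e-17) was 5.09 without BF-2d replicate 3. PCK1, the cytosolic enzyme that supplies glycerol phosphate for triglyceride in fat cells and glucose in liver, was at 611 and 461 FPKM in BF-2d replicates 1 and 2, at 24.5 in replicate 3, and at 0.162, 0.262 and 0 in IMF-2d. BF-2d replicate 3 lay far below the other subcutaneous libraries, and still no library overlapped the other group. The difference of -7.41 (SE 0.78, adjusted p = 1.90e-06) was -8.87 without replicate 3.

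**Figure D3:**
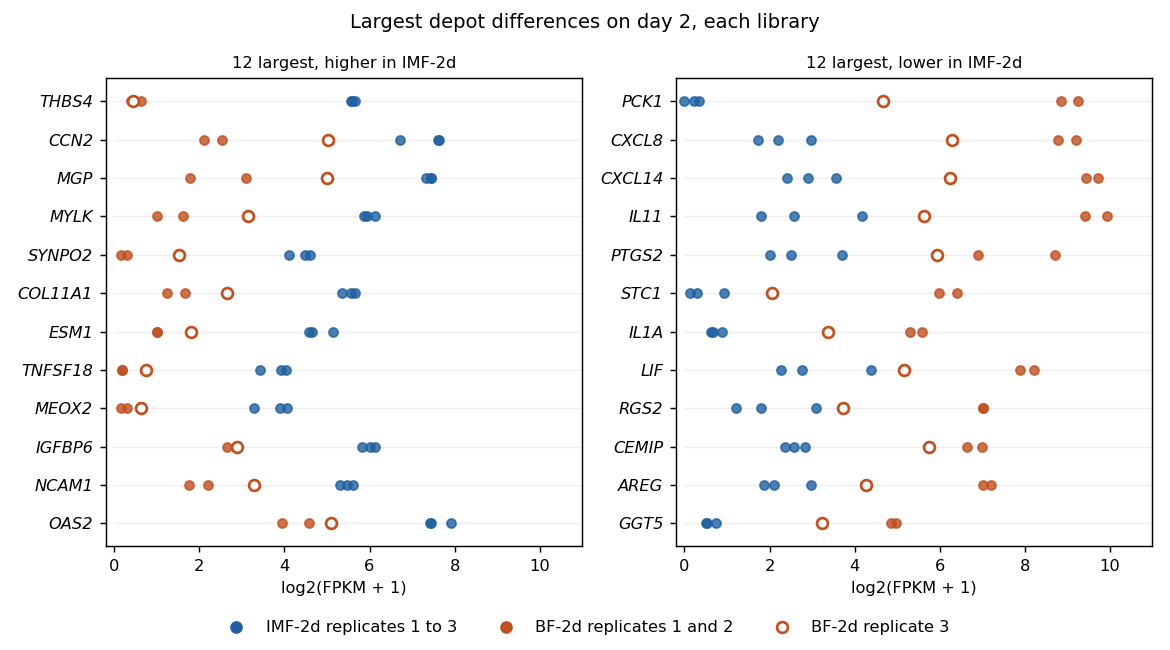
Values of the 12 largest called differences on each side in each day 2 library, on the log2(FPKM + 1) scale. Blue points are the 3 IMF-2d libraries, filled orange points are BF-2d replicates 1 and 2, and the open orange point is BF-2d replicate 3. The open point lies with the other BF-2d libraries for THBS4, MEOX2 and IGFBP6 and between the groups for CCN2, MGP, PCK1 and IL11.

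Several genes already separated the depots on day 0. IGFBP6, which binds insulin-like growth factors with a preference for IGF2, was at 68.8, 55.5 and 63.0 FPKM in IMF-2d and at 5.32, 6.23 and 6.44 in BF-2d, a difference of 3.18 (SE 0.18, adjusted p = 2.16e-10) after 2.69 on day 0. TNXB, the matrix protein tenascin-X, and C4A, a complement component, are neighbours on chromosome 7 (24088873 to 24155815 and 24068019 to 24083060 on Sscrofa11.1). TNXB was higher in IMF-2d by 2.96 (SE 0.16, adjusted p = 2.16e-10). C4A was higher by 2.79, with an SE of 0.16 and an adjusted p of 3.39e-10. Lower in IMF-2d was MASP1, a protease that starts the lectin pathway of complement, at 12.7, 16.8 and 11.3 FPKM against 245, 169 and 125 in BF-2d, a difference of -3.59 (SE 0.24, adjusted p = 2.10e-09) after -3.38 on day 0. CEMIP, which breaks down hyaluronan, differed by -3.87 (-2.35 on day 0) and CXCL2, a neutrophil chemokine, by -3.43 (-2.54 on day 0). For each of these 6 genes the groups did not overlap, and the call was kept in the fit on only the 6 day 2 libraries. Of the 107 genes of that fit, 58 were called on day 0 as well. IGFBP6, TNXB, C4A, MASP1, CEMIP and CXCL2 differed by 3.23, 3.22, 2.90, -3.83, -4.23 and -3.64 without BF-2d replicate 3.

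The list of HOX and other positional transcription factors was mixed in direction, with 6 of 43 tested members called higher and 5 lower in IMF-2d, the same counts with and without BF-2d replicate 3. Of all tested genes 2.71% were called higher and 2.02% lower, and 4.84% and 3.14% without that library. With either other scaling the counts were 5 higher and 7 lower. The median difference of the list was -0.11. MEOX2, a homeobox gene of the somites and limb muscle precursors, was at 13.8, 8.78 and 15.7 FPKM in IMF-2d against 0.107, 0.230 and 0.542 in BF-2d, a difference of 3.39 (SE 0.16, adjusted p = 2.16e-11). HOXA9 was higher by 2.13 (SE 0.13), at 8.63 to 9.50 FPKM in IMF-2d and no more than 1.43 in BF-2d, and HOXA5 by 1.78 (SE 0.14). IRX5, a homeobox gene of the Iroquois family, was lower, at 0.393 to 0.611 FPKM against 3.35 to 4.00 (-1.63, SE 0.14). Within each group these 4 genes varied by less than the distance between the groups, and BF-2d replicate 3 lay with replicates 1 and 2 for all of them. In the fit on only the 6 libraries, 4 members were called higher and 3 lower, beside 78 and 29 of all 16135 tested genes. MEOX2, HOXA9, HOXA5 and IRX5 differed by 3.52, 2.10, 1.68 and -1.57 without BF-2d replicate 3.

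The labels were checked on 202 genes called between the depots on both day 0 and day 4. The day 2 libraries were not compared in those calls but entered the estimate of each gene's spread, so the choice of genes was not fully independent of day 2. On day 2, 201 of them differed in the same direction, the groups did not overlap in that direction for 184, and 107 were called (119 without BF-2d replicate 3). Over all tested genes the groups did not overlap for 36.6%, and 4.74% were called (7.98% without BF-2d replicate 3). Each day 2 library was also compared with the other day 2 libraries over these genes. BF-2d replicate 3 was nearer to the mean of the other BF-2d libraries than to the IMF-2d mean for 158 of the 202 genes. For each of BF-2d replicates 1 and 2 this held for 193. Each IMF-2d library was nearer to the mean of the other IMF-2d libraries than to the BF-2d mean for 194 to 200 genes.

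Of 20 tested interferon-stimulated genes 6 were called higher and 0 lower in IMF on day 0, beside 302 and 115 of all 16135 tested genes. Their median difference was 2.14 on day 2 after 2.37 on day 0, and for 19 of 20 tested members every IMF-2d library was above every BF-2d library, where 36.6% of all tested genes had groups that did not overlap in either direction. With all libraries 4 of the 20 were called higher, beside 2.71% of all tested genes, and 2 without BF-2d replicate 3, beside 4.84%. OAS2, a sensor of double-stranded RNA, was at 172, 172 and 239 FPKM in IMF-2d and at 14.3, 23 and 33.3 in BF-2d (3.05, SE 0.60, adjusted p = 0.00117). MX1, an antiviral GTPase, was at 219 to 292 against 23.3, 50.4 and 54.3 FPKM (2.58, SE 0.60, adjusted p = 0.00413), and its call was lost when any of BF-2d replicates 1 and 2 or IMF-2d replicates 1 to 3 was left out. ISG15, a ubiquitin-like protein, was at 18.8, 164 and 36.3 FPKM in BF-2d and at 202, 242 and 299 in IMF-2d, and its difference of 2.31 was not called (adjusted p = 0.0834). RIGI, another RNA sensor, which was picked out after its values were seen, was at 63.0, 59.0 and 21.4 FPKM in IMF-2d and at 0.303, 0.464 and 0.380 in BF-2d. Its difference of 5.0 (SE 1.45) was not called (adjusted p = 0.0164), and on day 0 the IMF-0d libraries were at 3.73, 3.61 and 63.5 FPKM. OAS2, MX1 and ISG15 differed by 3.33, 2.80 and 2.10 without BF-2d replicate 3.

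Some genes that respond to cyclic AMP were lower in IMF-2d. Of 20 tested cAMP response genes 7 were called lower and 0 higher, beside 2.02% of all tested genes called lower, with a median of -0.91 after -0.13 on day 0. The change from day 0 was called for 3 of the 20 (PCK1, AREG and DUSP1), beside 2.45% of all tested genes, and for 7 without BF-2d replicate 3, beside 7.33%. On day 2 itself 9 were lower without BF-2d replicate 3 (3.14% of all tested genes), and the median was -1.21. SIK1, a kinase induced by cAMP that restrains CREB coactivators, was at 72.8 and 68.1 FPKM in BF-2d replicates 1 and 2, at 9.17 in replicate 3 and at 1.90, 7.66 and 1.01 in IMF-2d (-3.33, SE 0.54, adjusted p = 2.28e-04). The orphan nuclear receptor NR4A2 was at 105, 66.5 and 17.9 FPKM in BF-2d and at 6.42, 20.1 and 4.57 in IMF-2d, so that IMF-2d replicate 2 overlapped BF-2d replicate 3 (-2.43, SE 0.45, adjusted p = 6.85e-04). DUSP1, the phosphatase that switches off MAP kinases, was at 231, 244 and 104 FPKM against 37.5, 54.5 and 36.7 (-2.07, SE 0.22, adjusted p = 1.61e-06). AREG, an EGF family ligand, was at 128, 147 and 18.2 FPKM against 3.34, 6.86 and 2.64 (-3.84, SE 0.48, adjusted p = 1.27e-05), and its relative EREG differed by -3.72 (SE 0.48, adjusted p = 1.77e-05). SIK1, NR4A2, DUSP1, AREG and EREG differed by -4.27, -3.15, -2.47, -4.79 and -4.58 without BF-2d replicate 3.

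The element that CREB binds, TGACGTCA, was searched on both strands in windows of 300 bases (250 before to 50 from the annotated gene start on) taken from RefSeq on Sscrofa11.1. It was found in 2.26% of 19506 such windows, and in 5 of the 19 cAMP response genes that had one, namely PCK1, AREG, DUSP1, PDE7B and CREB5. The first 3 of these were called on day 2. The windows of PCK1 (chr17:57930257-57930556, plus strand) and DUSP1 (chr16:51457674-51457973, plus strand) are shown because both genes were lower in IMF-2d, with the element in capitals at positions -11 and -52 from the start. A match describes the letters of the window and not a bound site.
PCK1: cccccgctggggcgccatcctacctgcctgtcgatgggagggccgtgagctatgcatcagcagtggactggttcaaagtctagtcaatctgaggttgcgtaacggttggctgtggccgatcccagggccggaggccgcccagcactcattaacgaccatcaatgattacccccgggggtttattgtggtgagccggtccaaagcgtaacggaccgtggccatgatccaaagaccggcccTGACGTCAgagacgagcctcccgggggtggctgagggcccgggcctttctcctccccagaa
DUSP1: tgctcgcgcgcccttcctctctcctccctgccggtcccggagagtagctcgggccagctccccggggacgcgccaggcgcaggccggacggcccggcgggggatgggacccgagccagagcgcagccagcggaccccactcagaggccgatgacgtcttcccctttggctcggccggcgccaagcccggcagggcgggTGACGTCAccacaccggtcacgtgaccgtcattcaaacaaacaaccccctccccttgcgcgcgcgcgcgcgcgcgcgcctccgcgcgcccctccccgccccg

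Of 14 tested glucocorticoid response genes 5 were called lower and 0 higher in IMF-2d, beside 2.02% of all tested genes called lower, with a median of -0.68. One of the 5 is DUSP1, which also stands in the cAMP list, and 4 of the 14 had a difference above 0. Leaving out BF-2d replicate 3 gave 5 lower and 1 higher, beside 3.14% and 4.84% of all tested genes. CEBPD, an early adipogenic factor, was among the first 5 (-1.06) but not among the second. ANGPTL4, a secreted inhibitor of lipoprotein lipase, was at 55.5, 73.4 and 33.6 FPKM in BF-2d and 10.1, 14.2 and 6.88 in IMF-2d (-2.26, SE 0.27, adjusted p = 6.71e-06), after 0.80 on day 0. SGK1, a kinase of ion transport, differed by -1.43 (SE 0.22) and KLF15, a transcription factor of amino acid and lipid metabolism, by -1.86 (SE 0.19), after -1.14 and a call on day 0. FKBP5, an immunophilin in the glucocorticoid receptor complex, had a difference of 0.97, not called (adjusted p = 0.0119), and of 1.25, called, without BF-2d replicate 3. ANGPTL4, SGK1 and KLF15 differed by -2.56, -1.74 and -2.09 without BF-2d replicate 3.

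Secreted inflammatory factors held 5 of the 12 largest differences on the BF-2d side. CXCL8, a neutrophil chemokine, was at 438, 588 and 77.3 FPKM in BF-2d and at 3.56, 6.81 and 2.31 in IMF-2d (-5.80, SE 0.77, adjusted p = 3.14e-05). CXCL14, a chemokine of epithelium and adipose tissue, was at 688, 848 and 74.5 FPKM against 6.46, 10.9 and 4.30 (-5.51, SE 0.60, adjusted p = 2.69e-06). IL11, a cytokine that signals through gp130, was at 684, 981 and 48.9 FPKM against 4.94, 16.9 and 2.49 (-5.49, SE 0.77, adjusted p = 5.06e-05). Each of these 3 genes was highest in BF-2d replicates 1 and 2 and intermediate in replicate 3, and within IMF-2d replicate 2 was highest. The differences were -6.70, -6.62 and -6.83 when BF-2d replicate 3 was left out, and the fit on only the 6 libraries called none of these 3 genes. LIF, IL1A and IL6 were also lower in IMF-2d, with differences of -3.95, -4.03 and -2.93 and limma adjusted p-values of 1.65e-04, 2.82e-04 and 7.18e-04. In all, 4 of 15 tested interleukin and gp130 cytokine genes were called lower and none higher, and of 18 chemokines and colony-stimulating factors 4 were called lower and 1 higher (all tested genes: 2.02% lower and 2.71% higher). With BF-2d replicate 3 left out the cytokine genes gave 5 lower and the chemokines 4 lower and 2 higher (3.14% and 4.84%). Among their receptors, IL6ST (gp130), IL11RA, IL6R, LIFR and OSMR differed by -0.41 to 0.40 and were not called. LIF, IL1A and IL6 differed by -4.90, -4.73 and -3.73 without BF-2d replicate 3.

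The prostaglandin pathway was split. PTGS2, the inducible cyclooxygenase, was at 417, 119 and 60.6 FPKM in BF-2d and at 4.72, 12 and 3.05 in IMF-2d (-4.44, SE 0.65, adjusted p = 7.98e-05). PLA2G4A, the phospholipase that releases its substrate, differed by -2.68 (SE 0.37), and PTGES, the synthase of prostaglandin E2, by -2.19 (SE 0.35). The annotated spans of PTGS2 and PLA2G4A overlap on chromosome 9 (127850164 to 127858866 and 127853581 to 128164825), and the strand of the reads was not given in the sources used here. PTGIS, the synthase of prostacyclin, was instead higher in IMF-2d, at 101 to 106 FPKM against 18.1, 12.1 and 37.5 (2.30, SE 0.29, adjusted p = 1.45e-05), and had been higher by 1.36 on day 0. Of 14 tested members 4 were called lower and 1 higher, beside 2.02% and 2.71% of all tested genes. Without BF-2d replicate 3 there were 5 and 1, beside 3.14% and 4.84%. PTGS2, PLA2G4A, PTGES and PTGIS differed by -5.06, -3.37, -2.60 and 2.73 without BF-2d replicate 3.

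Of 8 tested adipocyte genes 4 were called lower and 0 higher in IMF-2d, and 3 were lower without BF-2d replicate 3, beside 2.02% and 3.14% of all tested genes. CFD (adipsin), a complement protease secreted by fat cells, was at 13.7, 22.7 and 8.43 FPKM in BF-2d and at 1.39 to 1.52 in IMF-2d (-2.60, SE 0.36, adjusted p = 3.45e-05), and had differed by -2.34 on day 0. Other markers of the mature fat cell were near 0 in both groups. ADIPOQ (adiponectin) and PLIN1 (the coat protein of lipid droplets) did not exceed 0.0201 and 0.0376 FPKM in any day 2 library, LEP (leptin) was listed at 0 in all 6, and FABP4 did not exceed 0.574. CEBPA and CEBPB were higher in BF-2d. CEBPA was at 9.71, 8.37 and 10 FPKM in BF-2d and at 2.85, 3.30 and 2.52 in IMF-2d (-1.42, SE 0.23, adjusted p = 2.30e-04), with BF-2d replicate 3 at the level of the others, and its call was kept with only the 6 libraries. CEBPB was at 40.0, 51.2 and 27.8 against 11.8, 16.5 and 8.24 FPKM (-1.63, SE 0.25, adjusted p = 9.17e-05). PPARG differed in its pattern from both, and unlike them it was already called on day 0 (-1.67, adjusted p = 4.66e-04). It was at 5.75 FPKM in BF-2d replicate 3, at 1.27 in each of replicates 1 and 2, and at 0.428, 0.4 and 0.591 in IMF-2d, and its difference of -1.15 (SE 0.29, adjusted p = 0.00744) was -0.63 and not called without replicate 3. The call was also lost without any one of the 3 IMF-2d libraries. LPL, the lipase that frees fatty acids from circulating triglyceride, was the reverse, at 82.1, 77.7 and 6.71 FPKM in BF-2d and at 1.86, 3.62 and 1.86 in IMF-2d (-3.46, SE 0.58, adjusted p = 3.05e-04). Within BF-2d, then, the library with the most PPARG had the least LPL. CFD, CEBPA, CEBPB and LPL differed by -2.93, -1.37, -1.86 and -4.59 without BF-2d replicate 3.

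Among 22 adipogenic transcription factors 3 were called higher and 7 lower in IMF-2d (2.71% and 2.02% of all tested genes). Without BF-2d replicate 3 there were 5 and 5 (4.84% and 3.14%). EBF2, a factor that marks preadipocytes of the brown and beige kind, was on the higher side, at 13.9, 15.3 and 13.6 FPKM against 3.65, 1.79 and 3.52 (1.97, SE 0.21, adjusted p = 1.22e-06). GATA2, which holds preadipocytes back from differentiation, was lower, at 3.63 to 3.97 FPKM in IMF-2d against 26.4, 23.6 and 6.88 (-1.87, SE 0.36, adjusted p = 8.92e-04). The lists of lipid synthesis had medians near that of all genes. The median was 0.21 for 15 fatty acid synthesis genes and 0.04 for 24 genes of cholesterol synthesis and uptake, and limma called 0 of each with all libraries. With BF-2d replicate 3 left out 2 of the 15 and 1 of the 24 were called, beside 7.98% of all tested genes. PLIN2, the droplet coat protein of non-adipose and early fat cells, was at 88.9, 86.7 and 43.2 FPKM in BF-2d and 28.4 to 30.7 in IMF-2d (-1.21, SE 0.23, adjusted p = 8.88e-04). MGLL, which splits monoglycerides, was higher in IMF-2d by 1.52 (SE 0.22). EBF2, GATA2, PLIN2 and MGLL differed by 2.08, -2.44, -1.55 and 1.86 without BF-2d replicate 3.

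Contractile genes were the list with the most calls on the IMF-2d side. Of 23 tested, 12 were called higher and 0 lower, with a median of 1.23 after 0.26 on day 0, beside 2.71% of all tested genes called higher. Leaving out BF-2d replicate 3 raised this to 18 higher, beside 4.84% of all tested genes, and a median of 1.68. MYLK, the kinase that starts smooth muscle contraction, was at 60.5, 57.6 and 69.3 FPKM in IMF-2d and at 2.05, 0.995 and 7.87 in BF-2d (4.07, SE 0.39, adjusted p = 4.00e-07). ACTA2, the actin of smooth muscle and myofibroblasts, was at 61.2, 102 and 588 FPKM in BF-2d and at 848, 786 and 1086 in IMF-2d, so that BF-2d replicate 3 was close below IMF-2d. Its difference of 2.53 (SE 0.55, adjusted p = 0.00240) was 3.49 without replicate 3, and its call was lost without any of BF-2d replicates 1 and 2 and IMF-2d replicate 3. TAGLN, an actin-binding protein of the same cells, was at 81.1, 127 and 396 FPKM against 578, 555 and 675 (1.90, SE 0.47, adjusted p = 0.00569), and of the 6 fits that left out 1 day 2 library only that without BF-2d replicate 3 kept the call (2.55). MYLK differed by 4.68 without BF-2d replicate 3.

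Serum response factor, which drives many contractile genes, binds the CArG box. This motif was found in 1.53% of the 19506 RefSeq windows and in those of 5 of the 23 contractile genes (TAGLN, CNN2, MYL9, TPM4 and VCL), all but TPM4 called on day 2. The letters GGAATG of the TEAD element, through which YAP and TAZ act, were found in 3 of the 23 contractile windows and 3 of 17 windows of the CCN and YAP/TAZ list (LATS2, ASAP1 and NUAK2, none called in both fits), beside 11.8% of all windows. CCN2 had no window and was not searched.

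CCN2, a matricellular protein and a much used YAP target, was at 196, 105 and 196 FPKM in IMF-2d and at 3.34, 4.76 and 31.3 in BF-2d (4.10, SE 0.51, adjusted p = 1.24e-05), after -1.07 on day 0. The change between the days came from the subcutaneous side: CCN2 fell by 5.19 in BF from day 0 to day 2, while in IMF the change was -0.02 and was not called. AXL, a receptor tyrosine kinase, and GADD45A, a stress protein, differed by 1.87 (SE 0.26) and 1.3 (SE 0.22). Of 23 genes of the CCN and YAP/TAZ list 5 were called higher and none lower, and 8 were called higher without BF-2d replicate 3 (all tested genes: 2.71% and 4.84%). CCN1, a relative of CCN2, had a difference of 0.93, under the size required for a call. CCN2, AXL and GADD45A differed by 5.0, 2.32 and 1.58 without BF-2d replicate 3.

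**Figure D4:**
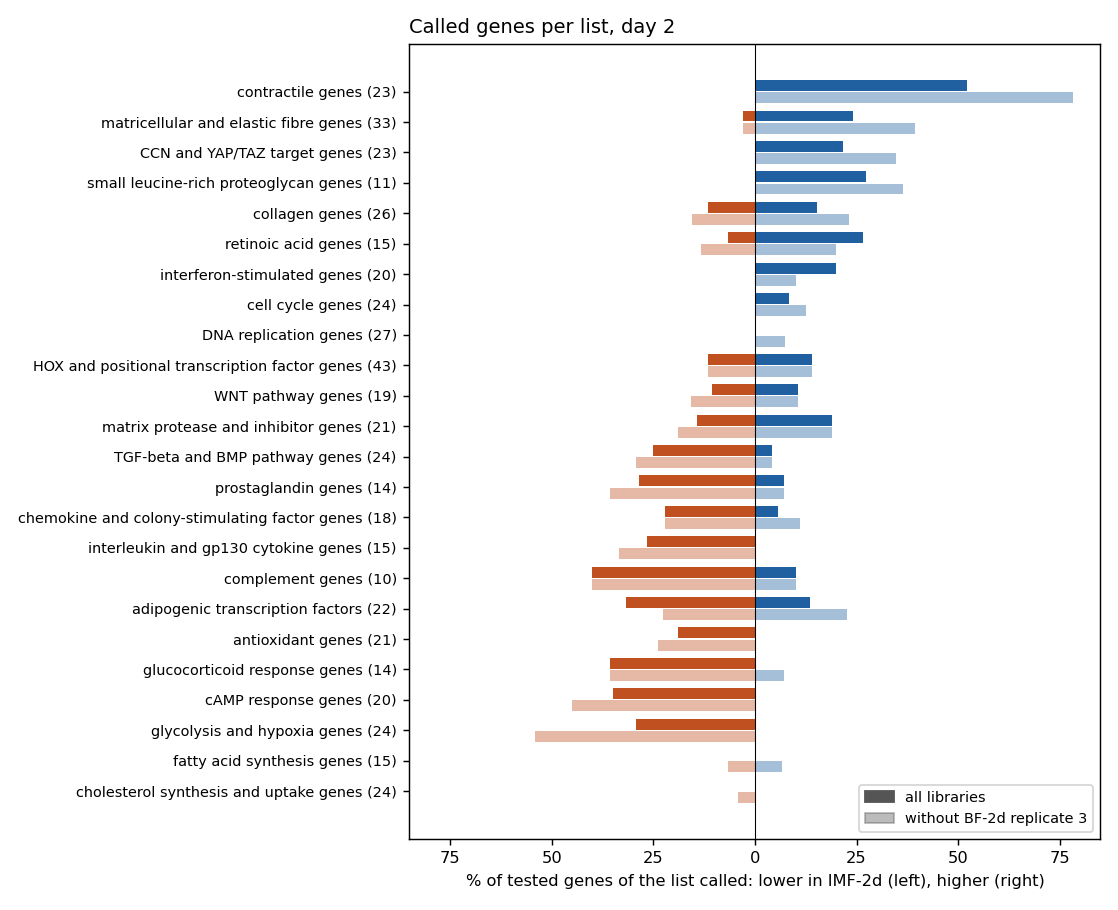
Share of the tested genes of each list that was called on day 2, with lists in rows (number tested in brackets) and the percentage on the horizontal axis, to the right for genes higher in IMF-2d (blue) and to the left for genes lower (orange). Full bars are from all libraries and pale bars from the fit without BF-2d replicate 3. Contractile genes reach furthest right, with 12 and 18 of 23 called, and glycolysis and hypoxia genes furthest left without replicate 3, with 13 of 24.

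In the matrix, 8 of 33 matricellular and elastic fibre genes were called higher and 1 lower in IMF-2d (13 and 1 without BF-2d replicate 3, 2 and 0 with only the 6 libraries), with a median of 0.70. Of all tested genes 2.71% were called higher and 2.02% lower, 4.84% and 3.14% without BF-2d replicate 3, and 0.663% in either direction with only the 6 libraries. MGP, which keeps calcium out of cartilage and vessel walls, was at 173, 159 and 173 FPKM in IMF-2d and at 2.46, 7.6 and 31.2 in BF-2d (4.10, SE 0.56, adjusted p = 3.65e-05), after 0.56 on day 0. THBS1, a matrix activator of TGF-beta, was at 1028, 946 and 1232 FPKM against 337, 158 and 501 (1.83, SE 0.34, adjusted p = 7.17e-04). COL11A1, a minor fibrillar collagen of cartilage, was at 46.6, 39.7 and 49.3 against 2.15, 1.35 and 5.26 FPKM (3.68, SE 0.28, adjusted p = 1.39e-08) and was called with only the 6 libraries too. Collagens were otherwise mixed, with 4 of 26 tested called higher and 3 lower, and 6 and 4 without BF-2d replicate 3. COL8A1 was higher by 2.11 and COL14A1 by 2.03, whereas COL4A1 and COL4A2, the chains of basement membrane that fat cells lay down, were lower, at -1.37 and -1.15. The major chains COL1A1 and COL1A2, at 0.85 and 0.72, were not called, and COL1A1 was called without BF-2d replicate 3 (1.31). MGP, THBS1, COL11A1, COL8A1, COL14A1, COL4A1 and COL4A2 differed by 4.96, 2.20, 4.08, 1.71, 2.20, -1.96 and -1.61 without BF-2d replicate 3.

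Enzymes of the matrix and of hyaluronan differed in both directions. Of 21 tested matrix protease and inhibitor genes 4 were called higher and 3 lower, beside 2.71% and 2.02% of all tested genes. Without BF-2d replicate 3 there were 4 and 4, beside 4.84% and 3.14%. Of 8 tested hyaluronan genes 1 was called higher and 2 lower in either fit. MMP2, a gelatinase, was at 2623, 2526 and 1365 FPKM in BF-2d and at 538, 621 and 509 in IMF-2d (-1.91, SE 0.18, adjusted p = 3.85e-07). ADAMTS4, which cuts aggrecan and versican, differed by -2.32 (SE 0.36) and PLAUR, the urokinase receptor, by -1.93 (SE 0.38), a call lost without BF-2d replicate 2. TIMP3, a matrix-bound protease inhibitor, was higher, at 746, 579 and 839 FPKM against 154, 92.4 and 325 (2.09, SE 0.32, adjusted p = 9.99e-05). HAS2, the main hyaluronan synthase, was higher in IMF-2d by 2.18 (SE 0.23), while CEMIP and TNFAIP6, which degrades and which crosslinks hyaluronan respectively, were lower, at -3.87 and -2.42. MMP2, ADAMTS4, PLAUR, TIMP3, HAS2, CEMIP and TNFAIP6 differed by -2.21, -2.67, -2.59, 2.57, 2.32, -4.23 and -2.52 without BF-2d replicate 3.

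Among growth factor pathways, calls of the TGF-beta and BMP list were mostly lower in IMF-2d. GREM1, a secreted BMP antagonist, was at 4.72, 5.04 and 4.28 FPKM in IMF-2d and at 48.5, 28.1 and 55.9 in BF-2d (-2.94, SE 0.26, adjusted p = 1.22e-07), with BF-2d replicate 3 the highest, and was called with only the 6 libraries too. BMP2 (-1.71, SE 0.37) and the BMP target ID2 (-1.59, SE 0.24) were lower as well, and CHRD (chordin), another BMP antagonist, was higher by 1.37 (SE 0.18). Without BF-2d replicate 1, BF-2d replicate 2 or IMF-2d replicate 1 the call of BMP2 was lost. Of 24 TGF-beta and BMP genes 1 was called higher and 6 lower (2.71% and 2.02% of all tested genes), and 1 and 7 without BF-2d replicate 3 (4.84% and 3.14%). WNT5A, a ligand that opposes adipogenesis, was at 15.2 FPKM in BF-2d replicate 1, at 2.77 in replicate 3 and in between in replicate 2, and at 0.825 to 1.65 in IMF-2d (-2.07, SE 0.48, adjusted p = 0.00367), while the secreted inhibitors SFRP4 and SFRP5 were higher in IMF-2d by 1.74 (SE 0.35) and 2.01 (SE 0.19). The call of WNT5A was lost without BF-2d replicates 1 or 2 or IMF-2d replicates 1 or 3, and that of SFRP4 without BF-2d replicate 2. IGF1 itself was not called (-1.02, adjusted p = 0.0834) and the groups overlapped. GREM1, BMP2, ID2, CHRD, WNT5A, SFRP4 and SFRP5 differed by -2.74, -2.35, -2.06, 1.52, -2.70, 2.31 and 2.24 without BF-2d replicate 3.

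Calls among retinoic acid genes were mostly on the IMF-2d side. With all libraries 4 of 15 tested were called higher and 1 lower, beside 2.71% and 2.02% of all tested genes. Without BF-2d replicate 3 there were 3 and 2, beside 4.84% and 3.14%. On day 0 there were 4 and 0, beside 302 and 115 of all 16135 tested genes. ALDH1A3, which makes retinoic acid, was at 151, 163 and 146 FPKM in IMF-2d and at 16.1, 10 and 69.3 in BF-2d (2.70, SE 0.40, adjusted p = 8.02e-05). CRABP2, which delivers it to its receptor, differed by 1.89 (SE 0.37), a call lost without BF-2d replicate 2. Antioxidant genes gave 4 calls of 21, all lower in IMF-2d, beside 2.02% of all tested genes, and 5 without BF-2d replicate 3, beside 3.14%. SOD2, the mitochondrial superoxide dismutase, was at 792, 624 and 771 FPKM against 174, 205 and 123 (-2.14, SE 0.32, adjusted p = 8.68e-05) and SOD3, the extracellular form, at 250, 312 and 87.7 against 46.8, 40.2 and 27.3 (-2.32, SE 0.34, adjusted p = 8.01e-05). BF-2d replicate 3 lay with replicates 1 and 2 for SOD2 and between the groups for SOD3. PRDX6, a peroxiredoxin, overlapped between the groups (-1.60, SE 0.34) and lost its call without BF-2d replicates 1 or 2 or IMF-2d replicates 1 or 3. ALDH1A3, CRABP2, SOD2, SOD3 and PRDX6 differed by 3.49, 2.55, -2.10, -2.88 and -2.29 without BF-2d replicate 3.

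The study chose candidate genes on these samples, so counts among them are not independent evidence. The list used here held only 16 of them, those given as examples in its results, and left out others such as GGT5. Of the 16, 15 were tested. With all libraries 1 was called higher and 5 lower in IMF-2d, beside 2.71% and 2.02% of all tested genes. With BF-2d replicate 3 left out 0 and 7 were, beside 4.84% and 3.14%. CAT (catalase), which removes hydrogen peroxide, was at 186, 143 and 54.2 FPKM in BF-2d and at 31.5, 29.7 and 28.3 in IMF-2d (-1.89, SE 0.39, adjusted p = 0.00173). SOAT1, which esterifies cholesterol, was at 46.4, 29.6 and 8.29 against 5.57, 6.45 and 5.61 FPKM (-1.79, SE 0.36, adjusted p = 0.00119). Both lost their call without BF-2d replicate 2, and CAT also without BF-2d replicate 1. For both genes BF-2d replicate 3 was above IMF-2d and far below the other subcutaneous libraries. AGT (angiotensinogen), the precursor of angiotensin, differed by -1.22 (SE 0.21), and FGF2, COX4I2, THSD7A, SHC3, CACNG7 and FABP4 were not called in either fit. CAT, SOAT1 and AGT differed by -2.41, -2.47 and -1.39 without BF-2d replicate 3.

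For some glycolysis and hypoxia genes the depot difference changed between the days. On day 0, 3 of 24 tested members were called higher and 0 lower in IMF, beside 302 and 115 of all 16135 tested genes. The list had a median of 0.60 and 23 differences above 0. On day 2 the median was -0.73, with 22 differences below 0. The change of the depot difference was called for 12 of the 24, all downward, and for 18 without BF-2d replicate 3, beside the 2.45% and 7.33% of all tested genes given above. On day 2 alone 7 members were called lower and 0 higher, beside 2.02% of all tested genes called lower, and 13 were lower without BF-2d replicate 3, beside 3.14%. ALDOA, the aldolase of glycolysis, was at 347, 431 and 138 FPKM in BF-2d and at 85.9, 137 and 93.9 in IMF-2d, where the highest IMF-2d library nearly reached BF-2d replicate 3 (-1.40, SE 0.30, adjusted p = 0.00235). Its call was lost without BF-2d replicates 1 or 2 or IMF-2d replicates 1 or 3. PFKL, a phosphofructokinase, differed by -1.52 (SE 0.23), VEGFA, the vascular growth factor, by -1.69 (SE 0.35), and ADM (adrenomedullin), a vasodilator induced by hypoxia, by -2.27 (SE 0.32). ADM had a difference of -0.72 on day 0, and its change between the days was not called, nor was that of VEGFA. Without BF-2d replicate 3 both changes were called (-1.99 for ADM and -2.74 for VEGFA). VEGFA lost its call without BF-2d replicates 1 or 2. ALDOA, PFKL, VEGFA and ADM differed by -1.89, -1.90, -2.32 and -2.71 without BF-2d replicate 3.

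Over the whole table, 6 genes were called in both day 2 fits and on day 0 with the opposite sign, 5 of them with a symbol, picked out here after their values were seen. SLC16A3, the transporter that exports lactate, was at 3.08, 3.05 and 3.15 FPKM in BF-0d and at 14.7, 13.9 and 19.3 in IMF-0d. On day 2 it was at 62.6, 94.8 and 10.3 FPKM in BF-2d and at 3.70, 4.75 and 2.90 in IMF-2d, so that a difference of 2.04 on day 0 had become -3.12 (adjusted p = 1.14e-04). DDIT4, an inhibitor of mTOR induced by hypoxia and glucocorticoids, went from 1.33 to -2.31, C1QTNF12, a secreted adipokine, from 1.45 to -1.49, and ENO1, a glycolytic enolase, from 1.0 to -1.01. GPNMB, a membrane glycoprotein, went from -1.17 to 1.05. SLC16A3, DDIT4, C1QTNF12, ENO1 and GPNMB differed by -4.05, -2.77, -1.53, -1.36 and 1.29 without BF-2d replicate 3.

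**Figure D5:**
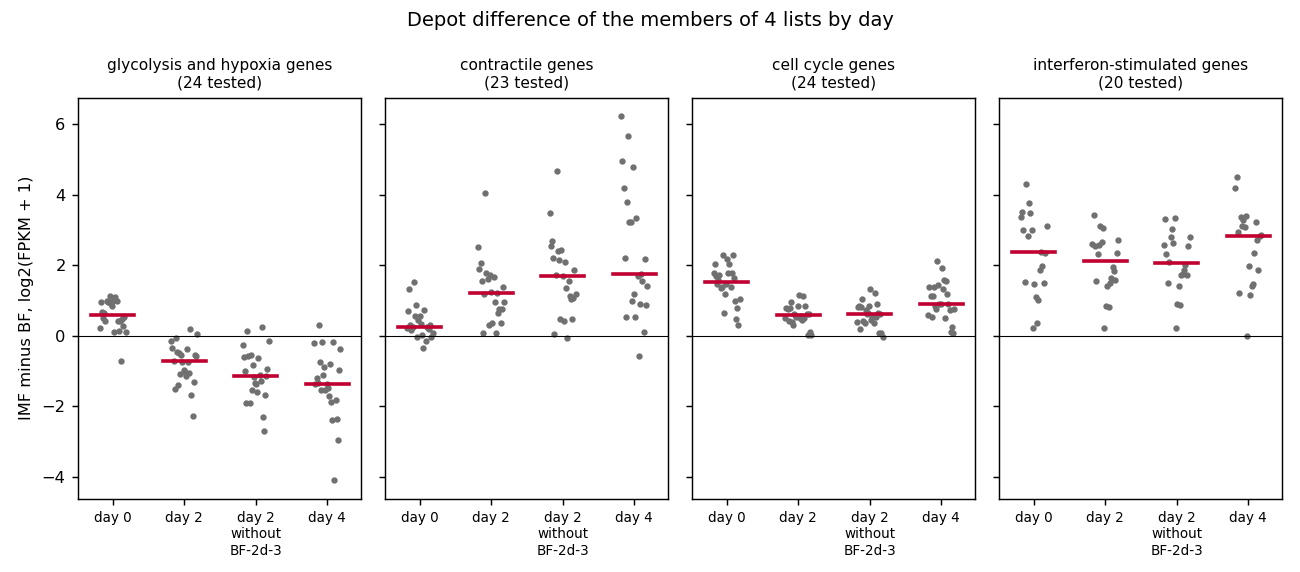
Depot difference of each tested member of 4 lists, IMF minus BF on the log2(FPKM + 1) scale, on day 0, on day 2 with and without BF-2d replicate 3, and on day 4. Grey points are genes and red bars are medians. The median of the glycolysis and hypoxia list goes from 0.60 on day 0 to -0.73 on day 2, that of the contractile list from 0.26 to 1.23, that of the cell cycle list from 1.53 to 0.58, and that of the interferon list from 2.37 to 2.14.

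The median depot difference of the cell cycle list was smaller on day 2 than on day 0. With all libraries the 24 tested members had differences above 0 on both days, each smaller on day 2, although scaling by median ratio or quantiles put the lowest day 2 difference at -0.09 and -0.17, and leaving out BF-2d replicate 3 put it at -0.03, with 23 above 0. The median went from 1.53 on day 0, when 19 were called higher, to 0.58 on day 2, when 2 were (3 without BF-2d replicate 3). Of all 16135 tested genes 302 were called higher on day 0, and 2.71% on day 2 (4.84% without that library). KIF20A, a motor of cell division, was at 14.9, 12.1 and 15.0 FPKM in IMF-2d and at 5.56, 4.32 and 7.48 in BF-2d (1.16, SE 0.25, adjusted p = 0.00226), a call lost without BF-2d replicate 2 or IMF-2d replicates 1 or 3. The decrease in the depot difference was itself called for 4 of the 24, and for 7 without BF-2d replicate 3, while a change in either direction was called for 2.45% and 7.33% of all tested genes. The 27 DNA replication genes had a median of 0.43 after 0.79 on day 0, when 10 were called higher, beside 302 of all 16135 tested genes. On day 2, 0 of the 27 were called with all libraries and 2 were called higher without BF-2d replicate 3. Of all tested genes 2.71% and 4.84% were called higher in these 2 fits. CDKN1C (p57), a brake on the cell cycle, was lower in IMF-2d (-1.29, SE 0.25, adjusted p = 0.00109), a call lost without BF-2d replicate 2. KIF20A and CDKN1C differed by 1.34 and -1.67 without BF-2d replicate 3.

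The labelled cell type was checked against marker lists. Of 14 stromal markers in the table none was at 0, and their FPKM summed to 12360, 10150 and 18940 in BF-2d and to 19930 to 22850 in IMF-2d, with VIM (vimentin) or COL1A1 the highest. The adipocyte list summed to 138, 150 and 64.6 FPKM in BF-2d and to 28.7 to 30.2 in IMF-2d, with LEP and RETN listed at 0 in all 6 libraries. Both sums placed BF-2d replicate 3 between the groups. MYOD1, MYF5, MYF6 and PAX7, which define muscle precursors, were listed at 0 in all 6 libraries, and the 21 myogenic markers summed to 0.696, 1.46 and 3.89 FPKM in BF-2d and to 3.72 to 6.10 in IMF-2d. Most of the IMF-2d sum was DES (desmin), a filament protein of muscle and mural cells, at 3.96, 3.03 and 4.56 FPKM against 0.109, 0.764 and 3.22 in BF-2d. It was called (1.25, SE 0.29, adjusted p = 0.00393), as on day 0 (2.72), although the groups overlapped and the call was lost without BF-2d replicates 1 or 2 or IMF-2d replicates 1 or 3. Immune markers summed to 80.4 to 135 FPKM in BF-2d and 55.2 to 78.1 in IMF-2d, nearly all of it from CD79A, while PTPRC (CD45), which all white blood cells carry, was listed at 0 in BF-2d and did not exceed 0.00835 FPKM in IMF-2d. Mural cell markers summed to 141 to 205 FPKM in BF-2d and 111 to 136 in IMF-2d, led by PDGFRB. Of 8 mural markers 2 were called higher and 0 lower, with and without BF-2d replicate 3, beside 2.71% and 2.02% of all tested genes (4.84% and 3.14% without it). The median was 0.17, 3 of the 8 were below 0, and 1 was called lower under median ratio or quantile scaling. CSPG4 (NG2) was higher in IMF-2d, at 15.3, 10.1 and 21.2 FPKM against 0.820, 0.854 and 8.00 (2.35, SE 0.38, adjusted p = 1.84e-04), and NOTCH3 by 1.19 (SE 0.17), a call lost without BF-2d replicate 2. The part of these cell types in the differences above was not tested. Of the progenitor markers, PI16 was higher in IMF-2d by 2.38 (SE 0.27) and PDGFRA lower (-1.41, SE 0.24). CSPG4, NOTCH3, DES, PI16 and PDGFRA differed by 3.11, 1.35, 1.78, 2.90 and -1.41 without BF-2d replicate 3.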

How the data were processed

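The RNA-seq table held FPKM values for 25462 genes in 24 libraries (8 groups of 3), and no column was left unmapped (0). The authors had aligned the reads with HISAT2 to Sscrofa11.1 and assembled and quantified genes with StringTie (version 1.3.4d in the submitters' processing notes, which also name DESeq2 1.6.3); the deposited FPKM values were used as they stood. Of the genes, 4191 had been assembled by the authors and had no Ensembl ID, and 14815 of 21271 Ensembl IDs had a symbol. No read counts or read totals were used here, so no counting error is given.

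Genes whose FPKM summed to more than 1 over all libraries (16135) were tested on log2(FPKM + 1) with limma 3.58.1 in R 4.3.3 (trend and robust options), with 1 mean per depot and day fitted to all 24 libraries, and again without BF-2d replicate 3. A call needed a Benjamini-Hochberg adjusted p under 0.01 and an absolute difference of at least 1. The code was tested on simulated data.

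The compared groups, the gene lists and the tests were chosen with earlier results of these data known. Named genes were the 12 largest differences per side among genes with a symbol called in both fits, with no overlap and the higher group averaging 1 FPKM or more, up to 4 called members per list with the largest differences, the study candidates, PPARG, CEBPA, ADIPOQ, PLIN1 and members that define a list. RIGI, the genes that turned sign, the cytokine receptors, ISG15, FKBP5, CEBPD, CCN1, COL1A1, COL1A2, COL4A1 and COL4A2 were added after their values were seen. Promoter windows came from RefSeq on Sscrofa11.1, which held 115 of the 119 named genes.

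Replicate numbers were checked for pairing by correlating deviations from the group means. Alternatives were the fit on only the compared libraries, a pseudocount of 0.1, no filter, a stricter filter, median ratio and quantile scaling, a replicate block, array weights and leaving out each of the 6 day 2 libraries in turn.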

Additional observations from a re-analysis of the deposited data

Results flagged for a closer look

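The depot difference itself differed between days by a tested interaction for 395 genes from day 0 to day 2 and for 493 genes from day 2 to day 4. Among the named genes, the values that follow are the IMF-2d minus BF-2d difference less the same difference on day 0, on the log2(FPKM + 1) scale, each past the limma threshold. It moved upward, toward IMF, for THBS4 (1.04), CCN2 (5.18), MGP (3.54), MYLK (2.54), COL11A1 (3.22), TNFSF18 (2.33), MEOX2 (1.28), ECM2 (2.21) and PI16 (1.84). It moved downward, toward BF, for PCK1 (-7.33), CXCL14 (-4.57), IL11 (-5.38), STC1 (-4.47), LIF (-4.19), RGS2 (-4.63), AREG (-5.06), GGT5 (-2.85), PLIN2 (-1.55) and ANGPTL4 (-3.05). The other downward changes were those of DUSP1 (-2.15), PLA2G4A (-2.32), PTGES (-2.13), IL6 (-3.53), EREG (-3.57), GREM1 (-1.64), ID2 (-1.60), ADAMTS4 (-2.36), SOD3 (-2.10), PFKL (-2.01) and ALDOA (-2.39). With 3 libraries per group, single outlying values were not tested.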

How the results depend on the processing

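The count of genes called on day 2 (764) was 107 when only the 6 compared libraries were fitted, 1474 with a pseudocount of 0.1, and between 445 (without BF-2d replicate 2) and 1287 (without BF-2d replicate 3) when 1 library was left out. Without BF-2d replicate 3 throughout, the count of 1287 was 830 with only the compared libraries and 2405 with a pseudocount of 0.1. The change of the depot difference from day 0 to day 2 (395) was called for 132 genes with only the compared libraries, for 899 with array weights, and for 221 to 1182 with a library left out. That from day 2 to day 4 (493) was called for 33 genes with only the compared libraries and for 317 to 879 with a library left out. The libraries left out were those of day 2, not of days 0 and 4. The smaller fits estimate the spread from fewer libraries. With BF-2d replicate 3 also left out, they called 830 genes on day 2, beside 107 with it. For the earlier change of the depot difference they then called 1170 genes, beside 132 with it. For the later change they called 26, beside 33 with it. What caused these shifts in the counts was not tested.

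Deviations of BF-2d and IMF-2d libraries with the same replicate number correlated at 0.0981, 0.204 and 0.222, and BF-2d replicate 1 correlated best with IMF-2d replicate 2 (0.150), so the numbers were not taken to pair the libraries. With a replicate block, 749 genes were called on day 2, 1276 without BF-2d replicate 3, and the changes to and from day 2 were called for 328 and 446 genes.

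Of the 119 named genes, none reversed under these alternatives. Most had been chosen for calls both with and without BF-2d replicate 3 (108 had both), so this is not an independent check. With only the 6 libraries 84 were no longer past the threshold, and with 1 library left out between 2 and 29 were not. The 2 belong to the fit without BF-2d replicate 3, which took part in the choice of genes. FPKM carry no read depth, which limits what can be said of genes at low values.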
